A study of Homo sapiens with 8 samples.

Results

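The mRNAs described here encode the proteins that shorten poly(A) tails, remove the cap and degrade the body of mRNA. The list held 49 genes, matched to probes only by RefSeq accession, and 45 of them were measured among 10959 measured genes in all. To be measured, a gene needed a probe that every one of the 8 arrays read as well above background, and the brightest of these probes was taken. A431 is a cell line from a human epidermoid carcinoma of the skin. A431 cells received miR-NC, the control miRNA, or miR-634, each at 10 nM, and were collected 24 h later. In each kind of cells, RNA from RNP immunoprecipitation (RIP) with an AGO2 antibody was compared with an input, which gave 4 groups of 2 one-color arrays, an input and a RIP group for each miRNA. The labels give normal rabbit IgG as the antibody of the input arrays, whereas the methods describe total RNA, and the arrays are treated here as input. The sources used here do not say whether the 2 arrays of a group came from separate transfections, so p values measure only the spread between these arrays, which may be technical.

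Animal miRNAs silence mRNAs through an AGO protein, whose partners of the GW182 family recruit deadenylase complexes. The PAN2-PAN3 and CCR4-NOT complexes shorten the poly(A) tail. The tail's 3′ end is then bound by the LSM1 to LSM7 ring, the cap is removed by DCP2 with its activators, and XRN1 degrades the transcript from the 5′ end, while the RNA exosome degrades RNA from the 3′ end. The mRNAs of this machinery can themselves be bound by AGO2, and the arrays measured how much of each was in the RIP and in the input. The mature miR-634 sequence is shown because it is the agent that distinguishes the cells, with its seed (bases 2 to 8), which pairs with targets, in capitals.
hsa-miR-634: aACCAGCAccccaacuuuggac
This sequence of 22 bases is that of RefSeq on GRCh38.p14, at chr17:66787132-66787153 on the + strand, within the bounds of PRKCA. The target letters complementary to the seed are UGCUGGU, and no transcript sequence was used here to look for them.

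Of 8 markers of A431 cells, such as EGFR and KRT5, all 8 were well above background on all 8 arrays. None of 3 fibroblast markers was, and none of the 4 markers of other cell types with a probe was. The share of spots well above background was 45.6% to 45.8% in the inputs, 33.6% and 34.5% in the RIP of miR-NC cells and 40.0% in both RIP arrays of miR-634 cells. The input arrays and the RIP arrays lay in different rows of 1 slide, so that row and RIP cannot be told apart. The part of both facts in the values below was not tested. Levels are log2 intensities minus the array's 75th percentile over the probes well above background on all arrays. A level therefore places an mRNA within its own array and does not compare genes, since each probe has its own brightness. The enrichment (RIP/input) is the difference of these levels, RIP less input, and the change of enrichment is its value in miR-634 cells less its value in miR-NC cells. Scaling to 7 spike-in probes instead raised every change of enrichment by 1.08 and lowered every enrichment, by 2.53 in cells with miR-NC and by 1.45 in cells with miR-634. Higher and lower below are thus relative to the bulk of mRNAs on the same array.

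The mRNAs of the decay machinery were found on both sides of the AGO2 RIP, with some strongly enriched and others depleted. In miR-NC cells, 19 of the 45 were higher in the RIP than in the input and 18 were lower, against 33.5% and 45.3% of all measured genes, while 8 were not called (limma, adjusted p under 0.05). In miR-634 cells, 19 were higher and 22 lower, against 36.1% and 48.3% of all measured genes. The enrichment ranged from -1.56 to 3.34 in miR-NC cells and from -1.81 to 2.40 in miR-634 cells. Its median over the members was -0.04 in miR-NC cells, where that of all genes was -0.12, and -0.20 in miR-634 cells, where that of all genes was -0.17. With spike-in scaling, 1 member was higher and 43 lower in miR-NC cells, and 3 were higher and 34 lower in miR-634 cells, a shift of all genes alike that leaves their order.

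Between the 2 kinds of cells, the enrichment of most of these mRNAs changed, in both directions. The change of enrichment was called higher in 18 members and lower in 21, against 28.1% and 43.2% of all measured genes, and 6 were not called. The 21 include EXOSC2 by its brightest probe alone, while its other probes rose. Changes over 2-fold were called higher in 8 members and lower in 8, against 13.2% and 8.31% of all measured genes. The median change was -0.20 over the members and -0.22 over all genes. Enrichment in miR-NC cells gave way to depletion in miR-634 cells in 6 members, or 13.3%, beside 6.08% of all genes. These 6 include TOE1, which was singled out for the fall of its enrichment. The opposite turn was seen in 6 members, or 13.3%, beside 8.47% of all genes. These 12 turns depend on where the scaling puts 0, since with spike-in scaling 3 members had called enrichments of opposite sign, of which 2, TOE1 and EXOSC1, were among the 12. A further 11 were enriched in both kinds of cells and 11 depleted in both, beside 2332 and 3610 of all 10959 genes. Changes taken from the arrays numbered 1 and from those numbered 2 had the same sign in 43 of 45 members and correlated across these genes (r = 0.989), where genes are not independent replicates and the same arrays underlie all points of a number. The 6 members whose change was not called, CNOT1, PARN, LSM1, XRN2, EXOSC4 and ZFP36L1, were called higher with spike-in scaling.

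**Figure D1:**
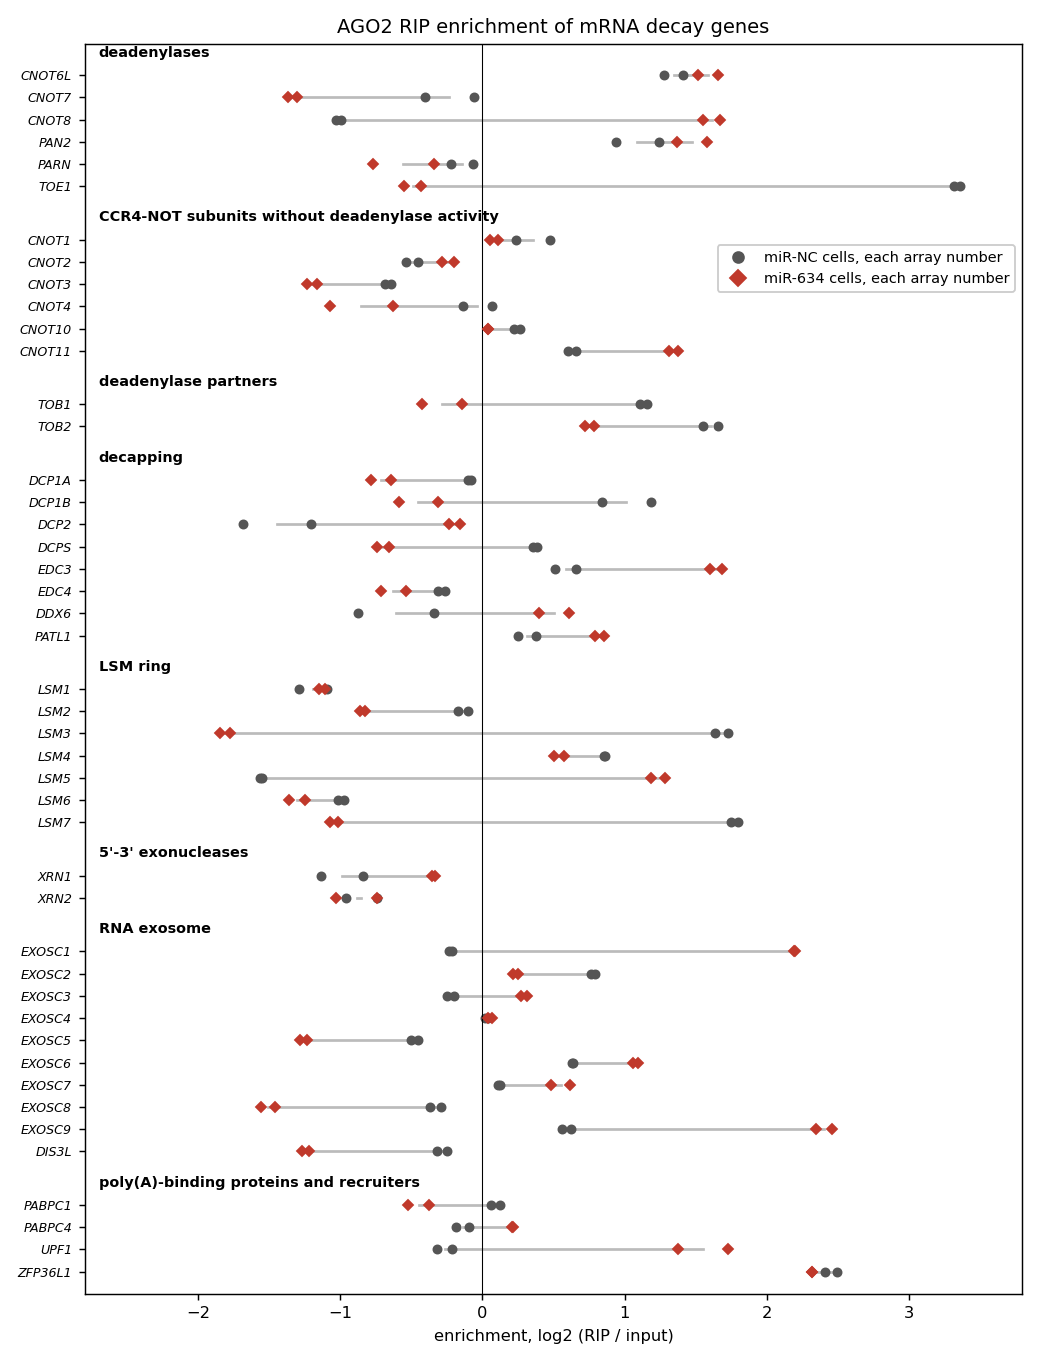
Enrichment of the 45 measured members, as log2 RIP/input, by role. Circles are miR-NC cells and diamonds miR-634 cells, 1 point for each array number, and gray lines join the means. TOE1, LSM3 and LSM7 moved from right of 0 to left of it, and CNOT8, LSM5 and EXOSC1 moved the other way.

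Among the deadenylases, TOE1 had the widest span between the 2 kinds of cells. TOE1 is a nuclear deadenylase of Cajal bodies, known for trimming the 3′ ends of small nuclear RNAs. It was singled out for the fall of its enrichment, so that its values are a description with no test, also where it is counted among the members called lower. In the miR-NC input its level was -2.95 and -3.01, and in the miR-NC RIP it was 0.38 and 0.36. In the miR-634 input it was -2.42 and -2.39, and in the miR-634 RIP it was -2.85 and -2.95. The miR-NC RIP arrays stood far above all 6 other arrays, and the miR-634 RIP arrays lay below their own inputs. The enrichment was 3.34 (SE 0.05) in cells with miR-NC, or 10.1-fold, the 31st highest of 10959 genes, and -0.49 (SE 0.05) in cells with miR-634. The difference was -3.83 (SE 0.07), a 14.3-fold fall and the 3rd lowest of 10959 genes. The RIP level fell by 3.26, while the input level was 0.57 higher, with no overlap between the input arrays of the 2 kinds of cells. With spike-in scaling the enrichment was 0.81 in cells with miR-NC and -1.94 in cells with miR-634.

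The other deadenylases did not follow TOE1 as a group. Of the 6 measured deadenylases, TOE1 included, the change of enrichment was called higher in 3, lower in 2 and not called in 1. Over all measured genes, 28.1% were called higher and 43.2% lower. Those called higher include CNOT6L and PAN2, whose calls were lost in 14 and 8 of 21 alternative settings. The 2 called lower were TOE1, singled out for its fall, and CNOT7. CNOT8, 1 of the pair of interchangeable CAF1-type catalytic subunits of CCR4-NOT, went the opposite way to TOE1. Its level was -2.55 and -2.50 in the miR-NC input and -3.54 and -3.53 in the miR-NC RIP. It was -3.09 and -3.28 in the miR-634 input and -1.53 and -1.61 in the miR-634 RIP. The miR-634 RIP arrays were the highest and the miR-NC RIP arrays the lowest, with no overlap among the groups. The enrichment rose from -1.01 to 1.61 (SE 0.07 each), a change of 2.63, or 6.18-fold (limma, adjusted p = 3.21e-06). Its input level fell by 0.66 (adjusted p = 0.00218).

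CNOT7, the partner paralog of CNOT8 at the same place in the complex, changed in the other direction. Its level was -1.84 and -1.50 in the miR-NC input and -1.90 on both miR-NC RIP arrays. It was -1.20 on both miR-634 input arrays and -2.51 and -2.57 in the miR-634 RIP. The miR-634 RIP arrays were below all others and the miR-634 input arrays above all others. The enrichment was -0.23 in cells with miR-NC, which was not called, and -1.34 in cells with miR-634, and it fell by 1.10 (SE 0.15, limma, adjusted p = 0.000677). A dimmer probe of CNOT7 fell by 1.08. The input level of CNOT7 rose by 0.47 (adjusted p = 0.0235) by the brightest probe, whereas the dimmer probe gave 0.19, which was not called. With spike-in scaling the change of enrichment was -0.02 and was not called.

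CNOT6L, a CCR4-type catalytic subunit, was read on opposite sides of 0 by its 2 passing probes. The probe that stood for it was the brighter one over all arrays because of its RIP levels, so its choice leans on the enrichment it reports. By that probe its level was -2.93 and -2.82 in the miR-NC input, -1.51 and -1.54 in the miR-NC RIP, -3.19 and -3.13 in the miR-634 input and -1.54 and -1.61 in the miR-634 RIP. With it, all 4 RIP arrays were above all 4 input arrays, and the RIP levels of the 2 kinds of cells overlapped. The enrichment was 1.35 and 1.59 (SE 0.06 each), and its change of 0.24 was close to the threshold (adjusted p = 0.0367) and lost its call in 14 of 21 alternative settings. The other probe of the same transcript was the brighter one on all 4 input arrays and had enrichments of -0.78 and -0.72, with a change of 0.06 that was not called. No direction is thus settled for CNOT6L. The input change was -0.29 (adjusted p = 0.0166) by the former probe and -0.20 by the latter, which was not called.

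PAN2, the nuclease of the PAN2-PAN3 complex, was enriched in both kinds of cells. Its level was -4.86 and -4.99 in the miR-NC input, -3.92 and -3.75 in the miR-NC RIP, -5.04 and -5.22 in the miR-634 input and -3.67 and -3.64 in the miR-634 RIP. The RIP arrays were all above the input arrays, and those of miR-634 cells were the higher ones. The enrichment was 1.09 and 1.47 (SE 0.09 each), and its change of 0.38 passed the threshold (adjusted p = 0.0299) but lost its call in 8 of 21 alternative settings. PARN, a poly(A)-specific nuclease that also matures small noncoding RNAs, had levels of -1.40 and -1.46 in the miR-NC input, -1.62 and -1.53 in the miR-NC RIP, -1.26 on both miR-634 input arrays and -2.03 and -1.61 in the miR-634 RIP. The RIP arrays of the 2 kinds of cells overlapped. The change of -0.41 (SE 0.18) was not called (adjusted p = 0.0813). CNOT6 had no matched probe.

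**Figure D2:**
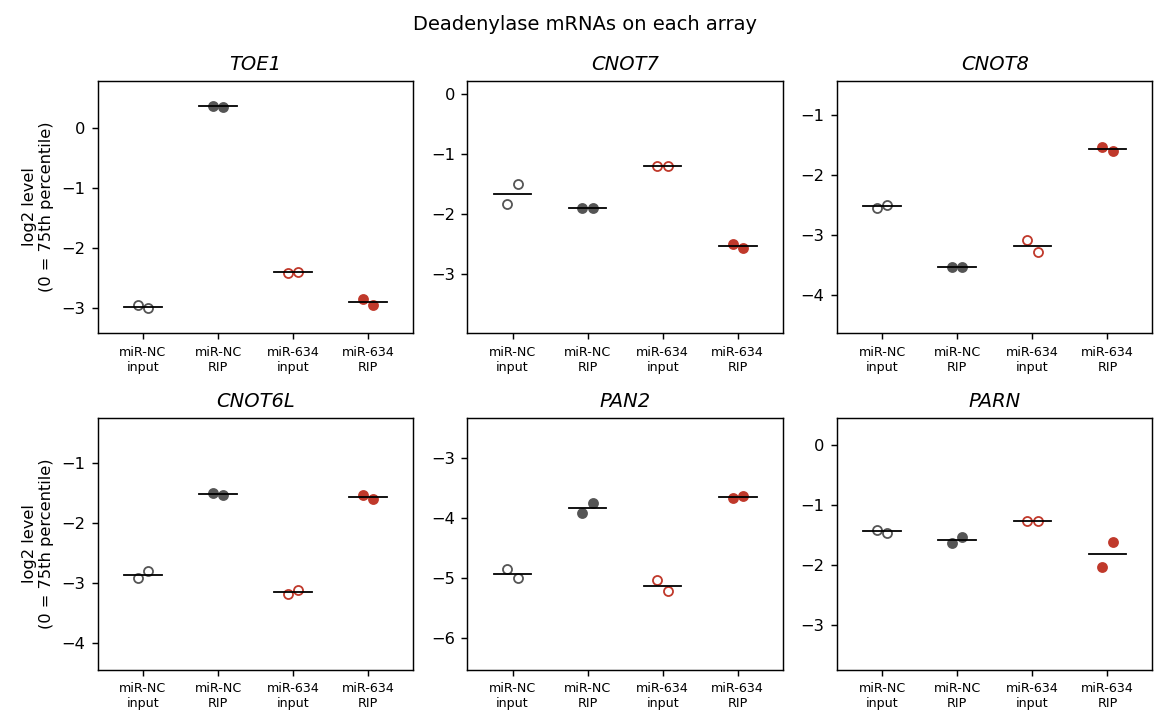
Log2 levels of the 6 measured deadenylase mRNAs on each array, where 0 is the array's 75th percentile. Open circles are input and filled circles RIP, gray for miR-NC cells and red for miR-634 cells, and lines are means of 2 arrays. All panels span the same range. The TOE1 miR-NC RIP arrays (0.38 and 0.36) stand alone, and the CNOT8 miR-634 RIP arrays (-1.53 and -1.61) lie above that gene's other arrays.

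The subunits of CCR4-NOT without deadenylase activity changed in both directions. The change of enrichment was higher in 2 of 6 and lower in 3, against 28.1% and 43.2% of all measured genes. It was not called in 1. No change was over 2-fold, against 13.2% higher and 8.31% lower of all measured genes, and 6 genes are too few to set against these shares. CNOT11, which with CNOT10 forms a module on the scaffold, rose from 0.63 to 1.34, a change of 0.71 (adjusted p = 9.42e-05). CNOT2, of the NOT module, was depleted in both and changed by 0.26 (adjusted p = 0.0219), a call lost in 5 of 21 alternative settings. The falls were of 0.82 (SE 0.18) for CNOT4, a ubiquitin ligase, 0.53 (SE 0.06) for CNOT3, the other NOT module subunit, and 0.20 (SE 0.07) for CNOT10. For CNOT4 the array numbers gave -0.49 and -1.14, the widest gap among the members. These 3 falls turned to values above 0 with spike-in scaling, and that of CNOT10 lost its call in 13 further settings of 21. CNOT1, the scaffold that holds the complex together, had a change of -0.28 that was not called (adjusted p = 0.0639). The input level of CNOT3 rose by 0.34 (adjusted p = 0.00442).

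TOB1 and TOB2, antiproliferative proteins that link poly(A)-binding protein to the CAF1-type deadenylases, were both enriched in miR-NC cells, by 1.13 and 1.61. TOB1 fell to -0.28 in miR-634 cells, a change of -1.42 (adjusted p = 0.000267), which was -0.33 and not called with spike-in scaling. TOB2 fell to 0.75, a change of -0.85 (adjusted p = 0.000114), which was 0.23 with spike-in scaling. Neither differed in the input by the test. PAN3, the subunit that guides PAN2, was not measured, since 1 of its probes was above background on 0 arrays and the other on 7, all but the first miR-NC RIP array. The latter's levels in the miR-634 RIP were far apart, at -4.25 and -0.48.

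For the decapping mRNAs, the change of enrichment was called higher in 4 of 8 and lower in 4, against 28.1% and 43.2% of all measured genes. DCP2, the enzyme that removes the cap, had levels of -1.70 and -1.68 in the miR-NC input and -2.91 and -3.36 in the miR-NC RIP. They were -2.59 and -2.72 in the miR-634 input and -2.82 and -2.88 in the miR-634 RIP. The miR-NC input arrays stood above all others, and the difference between RIP and input narrowed in miR-634 cells. The enrichment was -1.45 in cells with miR-NC and -0.20 in cells with miR-634, a rise of 1.25 (SE 0.20, adjusted p = 0.00145). Its input level fell by 0.97 (SE 0.14, adjusted p = 0.00554), the largest input difference among the members, whereas its RIP level differed by 0.28, which was not called. With spike-in scaling the RIP level of DCP2 was called higher, by 1.15.

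DCP1B, an activator of DCP2, had the largest fall of the decapping group. Its level was -3.45 and -3.54 in the miR-NC input and -2.60 and -2.36 in the miR-NC RIP. It was -3.34 and -3.45 in the miR-634 input and -3.93 and -3.76 in the miR-634 RIP. The RIP arrays changed from above the inputs to below them. The enrichment fell from 1.01 to -0.45, a change of -1.46 (SE 0.14, adjusted p = 0.000161), and with spike-in scaling it was -0.38 and not called. Its paralog DCP1A fell by 0.62 (adjusted p = 0.0014), which was 0.46 with spike-in scaling, and its input level rose by 0.41 (adjusted p = 0.00904).

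DCPS, which hydrolyzes the cap left by decay from the 3′ end, fell by 1.07, from 0.37 to -0.70 (adjusted p = 2.72e-05), a change that was 0.01 with spike-in scaling. EDC4, the scaffold of decapping, fell by 0.34 (adjusted p = 0.00853), which was 0.74 with spike-in scaling and lost its call in 3 further settings of 21. The other decapping factors rose. DDX6, the helicase that joins CCR4-NOT to decapping, went from -0.61 to 0.50, a rise of 1.11 (adjusted p = 0.00218), and a second probe gave 1.22. EDC3 rose by 1.06 (adjusted p = 0.000148) and PATL1, which binds both DDX6 and the LSM ring, rose by 0.51 (adjusted p = 0.00104).

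The LSM ring held both extremes of the list apart from TOE1, although its proteins work as 1 complex. The change of enrichment was lower in 5 of 7 and higher in 1, against 43.2% and 28.1% of all measured genes, and not called in 1. LSM3 had levels of 2.18 and 2.15 in the miR-NC input and 3.82 and 3.88 in the miR-NC RIP. It had 2.19 and 2.21 in the miR-634 input and 0.34 and 0.44 in the miR-634 RIP. The inputs lay close together, and the RIP arrays went from the highest to the lowest. The enrichment fell from 1.68 to -1.81, a change of -3.50 (SE 0.07), or 11.3-fold (adjusted p = 6.32e-07), the 7th lowest of 10959 genes. Its input change was 0.04 and was not called.

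LSM7 moved the same way as LSM3. Its level was 3.33 and 3.27 in the miR-NC input, 5.08 and 5.06 in the miR-NC RIP, 3.32 and 3.31 in the miR-634 input and 2.30 and 2.23 in the miR-634 RIP. Again the input arrays of the 2 kinds of cells overlapped and the RIP arrays lay on opposite sides of them. The enrichment fell from 1.77 to -1.05, a change of -2.82 (SE 0.07), or 7.07-fold (adjusted p = 7.58e-07). With spike-in scaling the changes of LSM3 and LSM7 were still called, at -2.41 and -1.74, and that of TOE1, given as a description, was -2.75.

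LSM5 had the largest rise of the list. Its level was 2.85 and 2.88 in the miR-NC input and 1.30 and 1.31 in the miR-NC RIP. It was 2.58 and 2.51 in the miR-634 input and 3.86 and 3.69 in the miR-634 RIP. The RIP arrays moved from the lowest to the highest, while the inputs were somewhat lower in miR-634 cells. The enrichment rose from -1.56 to 1.23, a change of 2.79 (SE 0.09), or 6.94-fold (adjusted p = 1.89e-06), and the input level fell by 0.32 (adjusted p = 0.017). The other ring subunits stayed closer to their starting point. LSM2 fell by 0.71, LSM4 by 0.32 and LSM6 by 0.31, all called and all above 0 with spike-in scaling. The calls of LSM4 and LSM6 were each lost in 3 further settings of 21. LSM1, the subunit that sets the cytoplasmic ring apart from the nuclear ring on U6 RNA, was depleted by -1.19 and -1.13 in the 2 kinds of cells, and its change of 0.06 was not called.

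Both 5′-3′ exonucleases were depleted in both kinds of cells. XRN1, the cytoplasmic enzyme that degrades decapped mRNA, went from -0.99 to -0.35, a rise of 0.64 (SE 0.15, adjusted p = 0.00777). As for DCP2, its input level fell, by 0.59 (adjusted p = 0.0113), and its RIP level differed by 0.06, which was not called. With spike-in scaling the RIP level of XRN1 was called higher, by 0.92. XRN2, its nuclear counterpart, had enrichments of -0.85 and -0.89, and its change of -0.03 was not called (adjusted p = 0.816).

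The enrichment of the RNA exosome mRNAs ran from -1.51 to 2.40 in miR-634 cells and from -0.48 to 0.78 in miR-NC cells, the last value being that of EXOSC2, whose probes disagree. The SD of the enrichment over all measured genes also differed, at 1.12 and 0.87. The change was higher in 5 of the 10 measured and lower in 4, against 28.1% and 43.2% of all measured genes, and not called in 1. The 4 lower include EXOSC2, which is counted by its brightest probe alone. EXOSC1, of the RNA-binding cap of the exosome, had levels of 0.65 and 0.64 in the miR-NC input, 0.41 and 0.42 in the miR-NC RIP, 0.51 and 0.54 in the miR-634 input and 2.71 and 2.72 in the miR-634 RIP. The miR-634 RIP arrays stood above all 6 others. The enrichment rose from -0.23 to 2.19, a change of 2.42 (SE 0.06), or 5.35-fold (adjusted p = 7.55e-07). EXOSC9, of the ring, rose by 1.81, or 3.52-fold (adjusted p = 2.95e-06), from 0.59 to 2.40.

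The remaining exosome rises were of 0.52 for EXOSC3, 0.45 for EXOSC6 and 0.44 for EXOSC7. Falls were found for EXOSC8, by 1.18 (adjusted p = 1.96e-05), EXOSC5, by 0.78 (adjusted p = 0.000514), and DIS3L, the cytoplasmic catalytic subunit, by 0.96 (adjusted p = 9.41e-05). With spike-in scaling EXOSC8 was -0.10 and not called, and EXOSC5 and DIS3L were above 0. EXOSC4 had a change of 0.02 and was not called. DIS3, the other catalytic subunit, had 1 probe, above background on 0 arrays, and EXOSC10, the nuclear catalytic subunit, had no matched probe.

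EXOSC2 gave different answers by probe. Its brightest probe had an enrichment of 0.78 in cells with miR-NC and 0.23 in cells with miR-634, a fall of 0.54 (adjusted p = 0.000406). Both dimmer probes of the same transcript rose, by 2.41 from -0.50 to 1.91 and by 2.13 from -0.09 to 2.05. In the miR-NC input their levels were -0.83 and -0.80 for the former and -1.93 and -1.99 for the latter. The brightest probe read 6.18 and 6.25 on the same arrays. Why the probes differ was not tested. The mean of the 3 probes changed by 1.33, and with spike-in scaling the brightest probe gave 0.54, so no direction is settled for this gene. Of the 7 members with more than 1 passing probe, EXOSC2 had probes called in opposite directions for the change of enrichment, and CNOT6L had probes on opposite sides of 0 for the enrichment itself. The remaining members, among them TOE1, LSM3, LSM7, LSM5, CNOT8, EXOSC1 and UPF1, had no other passing probe to check their values.

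**Figure D3:**
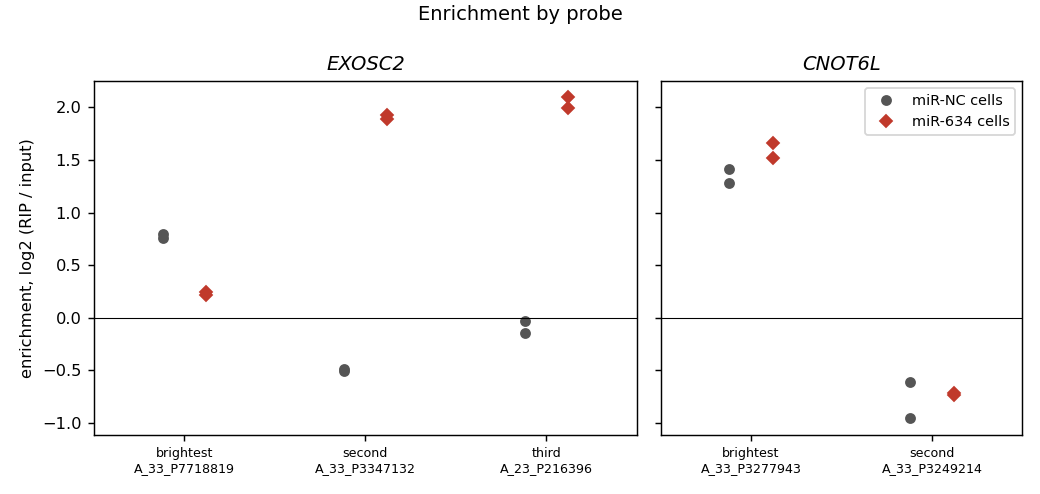
Enrichment, as log2 RIP/input, by each passing probe of EXOSC2 (3 probes) and CNOT6L (2 probes), ordered by brightness over all 8 arrays. Points are array numbers, circles miR-NC cells and diamonds miR-634 cells. The 2 dimmer EXOSC2 probes rose by 2.41 and 2.13 while the brightest fell by 0.54, and the CNOT6L probes lay on opposite sides of 0.

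The last group holds poly(A)-binding proteins and factors that recruit the decay machinery. UPF1, the helicase of nonsense-mediated decay, had levels of 0.08 and 0.12 in the miR-NC input, -0.24 and -0.09 in the miR-NC RIP, -0.04 and -0.02 in the miR-634 input and 1.34 and 1.70 in the miR-634 RIP. The miR-634 RIP arrays were the highest, though they differed from each other more than most pairs. The enrichment was -0.27 in cells with miR-NC, which was not called, and 1.55 in cells with miR-634, a rise of 1.82 (SE 0.17), or 3.53-fold (adjusted p = 0.00012).

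ZFP36L1, which binds AU-rich elements and recruits CCR4-NOT, was the second most enriched member in miR-NC cells and stayed so. Its level lay between 0.96 and 1.05 on all 4 input arrays. It was 3.46 on both miR-NC RIP arrays and 3.33 and 3.28 in the miR-634 RIP. All RIP arrays were thus far above all inputs. The enrichment was 2.45 and 2.32 (SE 0.05 each), and the change of -0.13 was not called (adjusted p = 0.139). Its other probe, which was the brighter one on all 4 input arrays, had enrichments of 1.87 and 2.09, and its change of 0.22 was called (adjusted p = 0.0333). With spike-in scaling the enrichment of the first probe was -0.08 in cells with miR-NC, which was not called, and 0.87 in cells with miR-634, and the change of 0.95 was called. PABPC1, the main cytoplasmic poly(A)-binding protein, fell by 0.54 (adjusted p = 0.00124), which was 0.54 above 0 with spike-in scaling, and its probe may also read near-identical copies of the gene. PABPC4 rose by 0.35 (adjusted p = 0.00534).

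**Figure D4:**
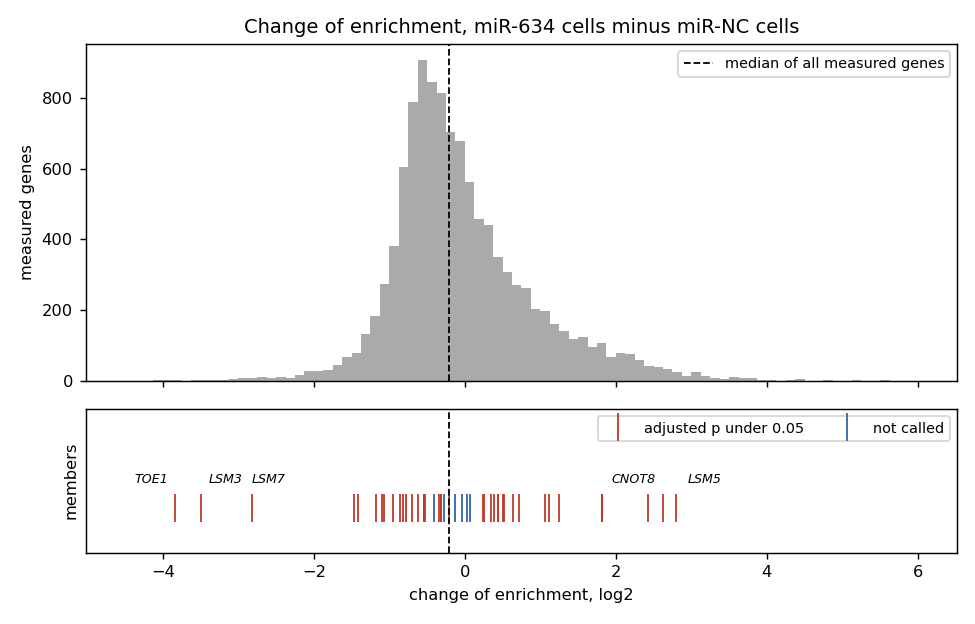
Upper panel, histogram of the change of enrichment (log2) over the 10959 measured genes. Lower panel, 1 tick for each of the 45 members, red where limma called the change and blue where it did not. The dashed line is the median of all genes (-0.22). TOE1, LSM3 and LSM7 lie in the left tail, apart from the other members.

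The input arrays moved much less than the RIP arrays. The input level was called higher in miR-634 cells in 5 members and lower in 8, against 11.6% and 12.1% of all measured genes, and 32 members were not called. None of these differences reached 2-fold, and in bulk RNA fewer cells with an mRNA and less of it per cell cannot be told apart. The risers were TOE1, CNOT7, DCP1A, CNOT3 and EXOSC4. Those that fell were DCP2, CNOT8, XRN1, LSM5, CNOT6L, EXOSC6, EXOSC9 and CNOT11. Spike-in scaling aside, these were the only member counts that moved by over 1.5 times between settings. Of the 13, the falls of DCP2 and CNOT8 were called in all 21 alternative settings fitted with limma, while the methods' t-test called none after adjustment, and with spike-in scaling EXOSC4 was -0.03.

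The RIP level itself was called higher in 15 members and lower in 21, against 30.9% and 46.5% of all measured genes. Of the 15 with a higher RIP level, 12 had an input value below 0, of which 5 were called lower, and of the 21 with a lower RIP level, 14 had an input value above 0, of which 4 were called higher. The same opposite signs were found in 62.3% and 52.5% of such genes among all measured genes, beside 80.0% and 66.7% of the members. Among all measured genes, 811 of 3385 with a higher RIP level were called lower in the input. Of 5098 with a lower RIP level, 660 were called higher in the input. The input and RIP changes share the scaling of the arrays, and the signs near 0 move with it.

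**Figure D5:**
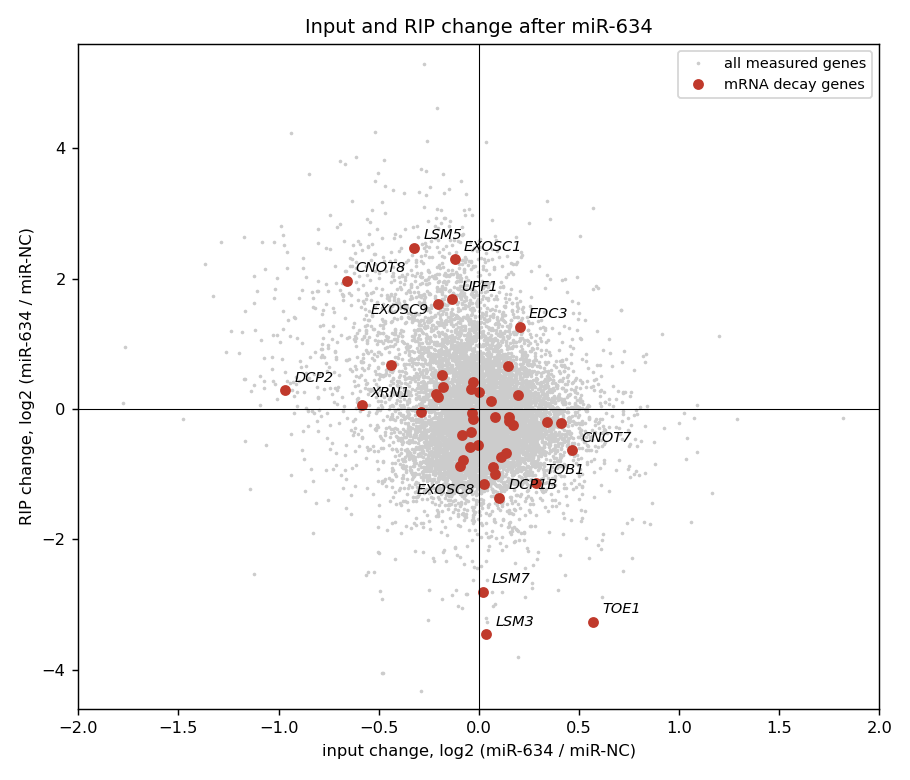
Input change (horizontal) and RIP change (vertical), as log2 miR-634 over miR-NC, for all measured genes (gray) and the 45 members (red). Most members lie near 0 for the input, while the RIP change runs from -3.46 for LSM3 to 2.47 for LSM5. DCP2 and XRN1 lie at the left with a RIP change near 0 by the scaling used here, which was called higher with spike-in scaling.

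A list of other genes of mRNA decay had 54 of its 64 genes measured. The change of enrichment was higher in 9, or 16.7%, and lower in 28, or 51.9%, beside 28.1% and 43.2% of all genes, and its median was -0.30, beside -0.22. In the input, 12 of these genes were higher and 2 lower, or 22.2% and 3.70%, beside 11.6% and 12.1% of all genes. The largest rises were of SMG6, the endonuclease of nonsense-mediated decay, by 2.15 (adjusted p = 0.00025), and UPF3B, which joins UPF proteins to the exon junction complex, by 1.79 (adjusted p = 5.5e-05). The largest falls were of TNRC6A, a GW182 protein that binds AGO and recruits deadenylases, by 1.31 (adjusted p = 1.72e-05), and ZCCHC8, of the nuclear exosome targeting complex, by 1.13 (adjusted p = 0.000468). Both falls were no longer called with spike-in scaling. The input level of TNRC6A rose by 0.75 (adjusted p = 0.000693). Among the 3 other deadenylases measured, ANGEL1 fell by 0.48 (adjusted p = 0.00494), and ANGEL2 and PDE12 had changes of 0.06 and -0.30 that were not called, names chosen after their values were seen.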

How the data were processed

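For each array, the authors deposited the intensity of every spot from Agilent Feature Extraction (version 9.1 per the labels), background-subtracted and not normalized between arrays. The authors also deposited processed log2 values, used here only as an alternative, with array medians from -0.44 to 0.87. Whether these values were centered per probe was found by comparison with the scanner signals, and their base was taken as log2 on the same ground.

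Control and outlier spots were left out, and no spot was saturated. Each array's log2 intensity was shifted by its 75th percentile over the 16808 of 58201 probes well above background on all 8 arrays. Of 33080 probes with a RefSeq accession, 31104 matched 1 gene symbol in the RefSeq table of GRCh38.p14. The design was annotated on hg19, so no gene coordinates are given. The 4 group means were fitted with limma 3.58.1 in R 4.3.3 (lmFit and eBayes, two-sided), with Benjamini-Hochberg adjustment over 10959 genes and a threshold of 0.05.

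The members and lists were chosen with earlier results of these data known. Values on every array are given for the deadenylases, the 4 largest rises and 4 largest falls of enrichment and the 2 largest of input in each direction that went the same way in both array numbers. ZFP36L1 was added after its values were seen. Of the other decay genes, the 2 largest rises and falls are named. The brightest probe was taken over all 8 arrays, RIP included. Alternatives covered scaling (all probes, median, quantile, spike-in), normexp with an offset of 50 on the median signal, the authors' values, filters, probe averaging, the brightest probe on the inputs (added after seeing the data), an intensity trend, centering, a replicate block, the methods' t-test and leaving out each array. All arrays shared 1 slide and 1 scan, so no slide block was fitted. The number of arrays limits the precision. The script was tested on simulated data. Python 3.11.15, pandas 2.3.3 and matplotlib 3.10.9 were used for tables and plots.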

Additional observations from a re-analysis of the deposited data

Results flagged for a closer look

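In 12 members the enrichment had opposite signs in the 2 kinds of cells, with both enrichments and their difference past the limma threshold, where the value of TOE1 is a description. In 6 of them the miR-634 value was the lower, with differences of -3.83 for TOE1, -3.50 for LSM3, -2.82 for LSM7, -1.46 for DCP1B, -1.42 for TOB1 and -1.07 for DCPS. It was the higher in the other 6, with differences of 2.79 for LSM5, 2.63 for CNOT8, 2.42 for EXOSC1, 1.11 for DDX6, 0.52 for EXOSC3 and 0.35 for PABPC4. The sign of an enrichment depends on the scaling, as spike-in scaling lowered all of them and left opposite signs for 2 of the 12, TOE1 and EXOSC1, and the difference for DCPS was 0.01 with that scaling.

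Probes of EXOSC2 that the comparison did not use changed by 2.13 and 2.41, against the fall of the brightest probe. A probe of PAN3 was above background on 7 of 8 arrays. Its levels were -4.25 and -0.48 in the miR-634 RIP, which lay far apart, and -4.80 on miR-NC RIP array 2. On miR-NC RIP array 1 it was not well above background, so no direction is read from it.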

How the results depend on the processing

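Spike-in scaling moved every count. The change of enrichment was then higher in 28 members and lower in 3, the RIP change in 30 and 4, the enrichment in 1 and 43 in miR-NC cells and in 3 and 34 in miR-634 cells, and the input change in 0 and 4. It put the median change of all genes at 0.87, beside -0.22 here and -0.10 to -0.17 with the other scalings. The shares of all genes called with spike-in scaling are not given here, so these counts do not compare the members with other genes. Called changes that turned above 0 with spike-in scaling were CNOT3 0.55, CNOT4 0.27, CNOT10 0.88, TOB2 0.23, DCP1A 0.46, DCPS 0.0082, EDC4 0.74, LSM2 0.38, LSM4 0.76, LSM6 0.77, EXOSC2 0.54, EXOSC5 0.30, DIS3L 0.12 and PABPC1 0.54, and the input change of EXOSC4 was -0.025. The 6 changes not called before were then called higher, at CNOT1 0.81, PARN 0.67, LSM1 1.15, XRN2 1.05, EXOSC4 1.11 and ZFP36L1 0.95. CNOT10 was 0.011 when centered on the median of all genes, and EXOSC2 was 1.33 as the mean of its probes. Of 39 called changes, 18 kept their call in all 21 settings fitted with limma and 25 never reversed.

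The input counts of 5 higher and 8 lower became 3 lower with the percentile over all probes and with the authors' values, and 2 and 2 with no filter. With the methods' t-test after Benjamini-Hochberg they were 0 and 0, beside 5 and 10 before adjustment. Leaving out 1 array gave 2 to 5 higher and 2 to 8 lower. The counts higher and lower were 2 and 3 without miR-634 input array 1, 2 and 2 without its array 2, 4 and 3 without miR-NC input array 1 and 3 and 2 without its array 2. Taking the probe brightest on the input arrays, an alternative chosen after seeing the data, exchanged the probes of 2 members, CNOT6L and ZFP36L1, and gave 18 higher and 21 lower for the change of enrichment. Other counts stayed within 1.5 times, and for the change of enrichment leaving out 1 array gave 15 to 17 higher and 20 to 22 lower.

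With a replicate block the change of enrichment was higher in 17 and lower in 21, the input change in 5 and 8 and the RIP change in 15 and 22. Deviations of same-numbered arrays correlated between -0.04 and 0.08, so the numbers only name the arrays. The causes of these shifts were not tested.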
